A study of Homo sapiens with 14 samples.

Results

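The MYC, MAX and MXD network was followed at the RNA level in 3 human prostate cancer cell lines exposed to SEL120-34A. Its 10 genes (MYC, MYCN, MYCL, MAX, MXD1, MXD3, MXD4, MXI1, MNT and MLX) were taken by symbol from the 62703 genes of the count table, and each was found once. LNCaP, 22Rv1 and PC3 cultures received 1.5 µM SEL120-34A, which blocks the Mediator-associated kinases CDK8 and CDK19, or its vehicle DMSO, and RNA was taken after 3 days. Both LNCaP and 22Rv1 had 3 libraries in each arm, and PC3 had 1 in each arm. The comparison asks how inhibition of these kinases alters transcripts in lines that differ in their response to the antiandrogen enzalutamide. LNCaP depends on androgen and is enzalutamide-sensitive, 22Rv1 responds to androgen but resists enzalutamide, and PC3 grows without androgen. The labels name no transgene or knockdown in these groups, and all libraries of a line come from 1 established line.

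MYC is a transcription factor that drives ribosome production, metabolism and cell division, and it binds DNA as a dimer with MAX. The MXD proteins, MXI1 and MNT take the same partner, recruit the SIN3 corepressor with its histone deacetylases and oppose MYC at shared sites. MLX is a MAX-like partner of MondoA and ChREBP, which respond to glucose, and it also pairs with some of the repressors. All these dimers prefer the E-box CACGTG, and in prostate cancer MYC is a frequently gained oncogene.

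The E-box is shown because it is the sequence that members of the network share as a binding site. RefSeq promoter windows on GRCh38.p14, from 250 bases before to 50 bases after a transcription start, were held for 9 of the 10 genes (not MYC). The letters CACGTG, which read the same on both strands, were present in 3 of these 9 (MXD4, MNT and MLX), in 2396 of the 27305 genes with a window (8.77%), and in 2548 of all 35116 windows (7.26%). The motif stood 238 bases before the start of MXD4, 193 before that of MNT and 50 before that of MLX. These distances are to the RefSeq starts, which for MNT and MLX differ from the GENCODE gene starts given below. The stretches below run 5′ to 3′ on the strand of the gene, with the E-box in capitals. They cover chr4:2262110-2262359 on the minus strand, chr17:2401226-2401275 on the minus strand and chr17:42567028-42567077 on the plus strand. A match is a description of the letters and does not show that the site was bound in these cells.
MXD4: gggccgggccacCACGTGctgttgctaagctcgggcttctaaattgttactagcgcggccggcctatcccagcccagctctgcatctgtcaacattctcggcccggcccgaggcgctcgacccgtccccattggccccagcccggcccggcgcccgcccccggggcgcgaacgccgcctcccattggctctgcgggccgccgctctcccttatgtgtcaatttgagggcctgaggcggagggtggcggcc
MNT: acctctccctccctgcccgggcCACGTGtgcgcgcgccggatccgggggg
MLX: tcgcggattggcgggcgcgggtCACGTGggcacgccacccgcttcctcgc

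On GRCh38 in GENCODE release 44, MAX lies at chr14:65006174-65102695, MXD4 at chr4:2247432-2262109 and MLX at chr17:42567072-42573239. MXI1 lies at chr10:110207605-110287365, MNT at chr17:2384073-2401104 and MXD3 at chr5:177301461-177312757. The sparsely counted members MXD1, MYCL and MYCN lie at chr2:69897688-69942945, chr1:39895428-39902256 and chr2:15940550-15947007. Exons of MXD3 overlap those of RAB24 on the same strand and of PRELID1 on the opposite strand. Exons of MAX overlap FNTB and those of MLX overlap PSMC3IP, both on the opposite strand. On their own strand, MXD1 shares exonic sequence with SNRNP27 and MXD4 with the microRNA gene MIR4800. MYCN, MYCL, MXI1 and MNT each overlap a long noncoding RNA on the opposite strand. Whether the counting used strand was not given in the sources used here, so reads of members with an opposite-strand overlap carry that uncertainty. For MXD1, MXD3 and MXD4 counting by strand would not separate the overlap on their own strand.

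Total counts ranged from 246063 to 909176 per library, and the 3 treated 22Rv1 libraries were all shallower than the 3 controls. A gene without counts could have been present at up to 3.27 CPM (counts scaled to a fixed library size) in the deepest library and 12.9 in the shallowest, taking 3 counts as the floor. These limits and all intervals on single libraries cover counting error only, and not transcripts that the counting may have missed. KLK3, the prostate secretory marker, had 1039 to 1369 CPM in LNCaP controls. It had 13.7 to 31.8 CPM in 22Rv1 controls, from 7 to 17 counts, and 7.62 in the PC3 control, from 7 counts. The 6 listed markers of androgen receptor-positive lines, KLK3 among them, summed to 2670 to 3102 CPM in LNCaP controls. Their sum was 379 to 550 CPM in 22Rv1 controls and 49.0 in the PC3 control. TMPRSS2, of the same 6, was lower in 22Rv1 controls (3.58 to 11.2 CPM) than in the PC3 control (20.7). VIM, CAV1 and CD44, which mark PC3, summed to 2154 CPM in the PC3 control and to at most 77.2 in any LNCaP or 22Rv1 library. Of 4 markers of blood, endothelial and stromal cells, PTPRC and COL1A2 had 0 counts in every library, and PECAM1 had 3 and 4 counts in PC3 and at most 1 elsewhere. COL1A1 had 92.5 and 85.9 CPM in PC3, 7.80 to 18.3 in LNCaP and 0 to 8.58 in 22Rv1. Levels below are CPM scaled with TMM factors, and because bulk RNA was measured, a change in the share of cells and a change per cell cannot be told apart.

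MYC RNA was higher in 22Rv1 than in LNCaP before treatment, MXD4 and MLX were higher in LNCaP, and SEL120-34A was followed by few changes in the network. Under treatment, 1 member passed the test, MXD4, when its effect was averaged over LNCaP and 22Rv1. MYC itself did not pass in either line or in the average, and its values were higher in the treated libraries on average in all 3 lines. Of the 10 members, 7 passed the low-count filter, and MYCN, MYCL and MXD1 did not.

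**Figure D1:**
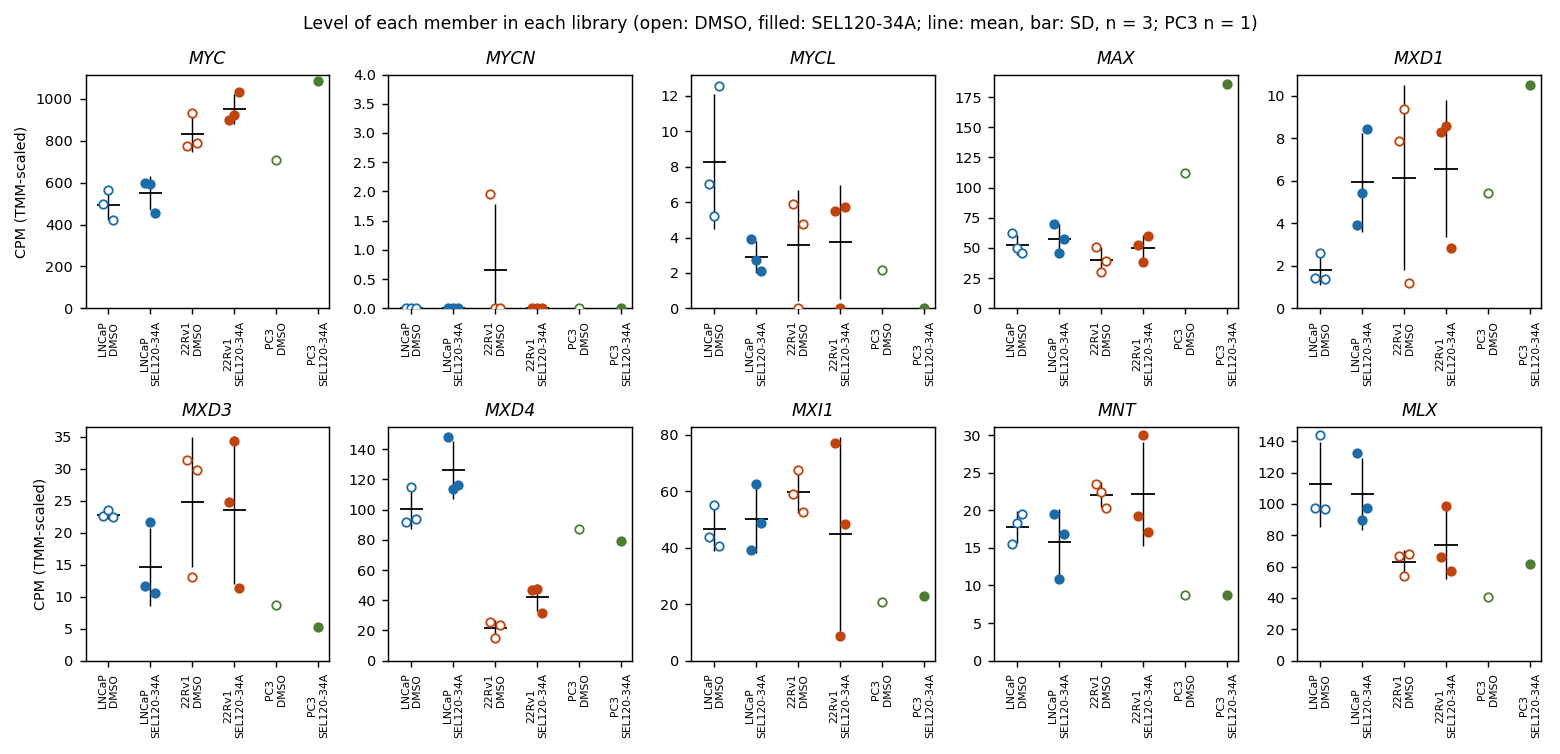
Level of each network gene in every library (vertical axes, CPM on linear scales that start at 0 and differ between genes) by cell line and treatment, with open points for DMSO, filled points for SEL120-34A, horizontal lines for means and bars for SD (n = 3, and n = 1 without bars in PC3). MYC lies between 422 and 600 CPM in LNCaP and between 775 and 1033 in 22Rv1, and MXD4 is lowest in the 22Rv1 controls.

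In the untreated cells, MYC differed clearly between the lines. The LNCaP controls had 499, 565 and 422 CPM of MYC (495 ± 71.7, SD, n = 3) and the 22Rv1 controls 775, 934 and 788 (833 ± 88.0). Every 22Rv1 control was above every LNCaP control. The log2 difference (LNCaP minus 22Rv1) was -0.75 (SE 0.13, edgeR adjusted p = 7.83e-06) and lay between -0.98 and -0.65 over 21 alternative settings, all of which kept the call. The PC3 control, at 708 CPM (95% counting interval 654 to 764), lay between both lines.

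MXD4 encodes a MAX-binding repressor associated with differentiated cells, and it showed the opposite order. Its levels were 91.6, 115 and 93.7 CPM in LNCaP controls (100.1 ± 13.1, SD, n = 3) and 25.5, 15.0 and 23.9 in 22Rv1 controls (21.4 ± 5.67), from 8 to 20 counts per library in the latter. The groups did not overlap. The log2 difference was 2.17 (SE 0.25, edgeR adjusted p = 1.33e-09), and it was called in all 20 alternatives that tested it. PC3 had 87.1 CPM (69.1 to 108) without treatment, close to the LNCaP values.

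MLX was measured at 97.2, 144 and 96.5 CPM in LNCaP controls (113 ± 27.2, SD, n = 3) and at 66.7, 54.3 and 68.0 in 22Rv1 controls (63.0 ± 7.58). All LNCaP controls lay above all 22Rv1 controls, with a log2 difference of 0.78 (SE 0.21, edgeR adjusted p = 0.00202). Thinning all libraries to the smallest total gave 0.54 (adjusted p = 0.112). The PC3 control had 40.3 CPM (28.4 to 55.5).

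The remaining tested members did not pass between the untreated lines. MAX, the common partner, differed by 0.41 (SE 0.25, edgeR adjusted p = 0.176), with 46.1 to 62.0 CPM in LNCaP controls and 29.9 to 51.0 in 22Rv1 controls. MXI1 differed by -0.38 (adjusted p = 0.269) and MXD3 by -0.15 (adjusted p = 0.750). MNT, the widely expressed repressor of the family, had 15.5 to 19.6 CPM in LNCaP controls and 20.3 to 23.6 in 22Rv1 controls, groups that did not overlap, yet its log2 difference of -0.30 was not called (adjusted p = 0.516). In all, 3 of 7 tested members differed between the untreated lines, where 49.0% of all 7086 tested genes did (24.0% higher and 25.0% lower in LNCaP). For separation of the control libraries the corresponding figures were 4 of 7 members (MYC, MXD4, MLX and MNT) and 56.4% of all tested genes (28.9% lower in LNCaP, as for MYC and MNT).

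The share of MYC in the counts of MYC and its MAX-binding rivals MXD1, MXD3, MXD4, MXI1 and MNT was set between libraries. Counts were not divided by gene length, so the share compares libraries and not the abundance of proteins. It was 74.1%, 72.5% and 70.4% in LNCaP controls (72.3% ± 1.84, SD, n = 3) and 84.0%, 88.0% and 86.1% in 22Rv1 controls (86.0% ± 1.98). With SEL120-34A it ranged from 69.5% to 73.5% in LNCaP and from 83.6% to 90.3% in 22Rv1, overlapping the controls in both lines. In PC3 it was 84.4% in the control and 89.6% in the treated library.

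MYC under SEL120-34A overlapped its controls in both replicated lines. Treated LNCaP libraries had 600, 594 and 456 CPM (550 ± 81.4, SD, n = 3), of which the lowest lay within the control range. The log2 change was 0.18 (SE 0.14, 95% interval -0.10 to 0.46, edgeR adjusted p = 0.617). Treated 22Rv1 libraries had 898, 923 and 1033 CPM (951 ± 71.4), and 2 of them lay under the highest control. The change there was 0.21 (SE 0.13, -0.06 to 0.47, adjusted p = 0.415). Averaged over both lines it was 0.20 (SE 0.10, 0.00 to 0.39), with an edgeR p of 0.0471 and an adjusted p of 0.244. The effects in the lines differed by -0.02 (LNCaP minus 22Rv1, -0.41 to 0.36, adjusted p = 0.981), an interval that still allows a difference in either direction. None of 21 alternatives called the averaged effect, with adjusted p from 0.103 to 0.882.

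MXD4 levels under SEL120-34A were 148, 114 and 116 CPM in LNCaP (126 ± 19.2, SD, n = 3), overlapping the controls. The log2 change there was 0.36 (SE 0.20, -0.05 to 0.77, edgeR adjusted p = 0.448). In 22Rv1 the treated libraries had 46.9, 47.2 and 31.4 CPM (41.8 ± 9.04), from 11 to 17 counts each, all above all controls. Groups without overlap in 22Rv1 were found for 23.0% of all tested genes, and for 12.4% with the higher values under treatment. The change in 22Rv1 was 0.93 (SE 0.33, 0.27 to 1.59) and did not pass, with an edgeR adjusted p of 0.0837. Averaged over both lines, MXD4 rose by 0.65 (SE 0.19, 0.26 to 1.03, edgeR adjusted p = 0.0332). The effects in the lines differed by -0.57 (-1.34 to 0.20, adjusted p = 0.603).

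The averaged rise of MXD4 lay close to the threshold. It was called in 10 of 20 alternatives, and the value was positive in all of them, from 0.53 to 0.97. Leaving out 1 library ended the call for replicates 1 and 3 of the LNCaP controls (edgeR adjusted p = 0.0643 and 0.0766), replicate 1 of treated LNCaP (0.0892), replicates 2 and 3 of the 22Rv1 controls (0.0860 and 0.0533) and replicates 1 and 2 of treated 22Rv1 (0.140 and 0.101). Library totals without TMM (0.0791), no low-count filter (0.183) and limma-trend on the deposited values (0.0735) also ended it. Because the treated 22Rv1 libraries were shallow, the libraries were also thinned to 1 total, which left 3 to 5 counts of MXD4 in 22Rv1 controls and 8 to 11 in treated 22Rv1. The averaged effect was then 0.97 (adjusted p = 0.0219).

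**Figure D2:**
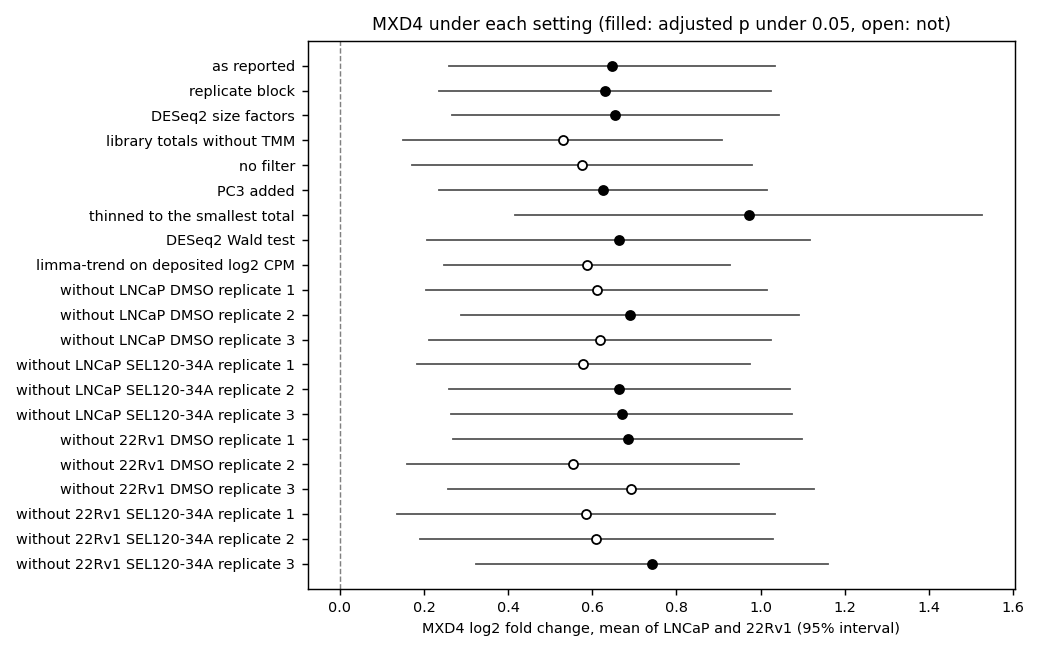
Average SEL120-34A effect on MXD4 over LNCaP and 22Rv1 (log2 fold change with 95% interval, horizontal axis) as reported and under each alternative setting (vertical axis), with filled points where the adjusted p was under 0.05. All estimates lie above 0, between 0.53 and 0.97, and 10 of the 20 alternatives keep the call.

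No other member passed under treatment. In LNCaP, 0 of 7 tested members were called, where 2.77% of all tested genes were, and in 22Rv1 0 of 7 against 5.7%. Averaged over the lines, 1 of 7 was called against 6.01% of all tested genes, and for the difference between the lines 0 of 7 against 0.734%. At an unadjusted edgeR p under 0.05 stood MXD4 in 22Rv1, and MXD4 and MYC in the average, and the DESeq2 Wald test likewise called no member within a line. The median log2 change of the 7 tested members was 0.13 in LNCaP and 0.18 in 22Rv1, and that of all tested genes was 0.00 in both. These medians cover only the members that passed the filter. They moved with single libraries, to -0.0082 in LNCaP without replicate 1 of the treated arm, 0.021 without replicate 3 of the controls and 0.053 without replicate 2 of the treated arm. In 22Rv1 they moved to 0.076 without replicate 2 of the controls and 0.12 without replicate 2 of the treated arm.

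**Figure D3:**
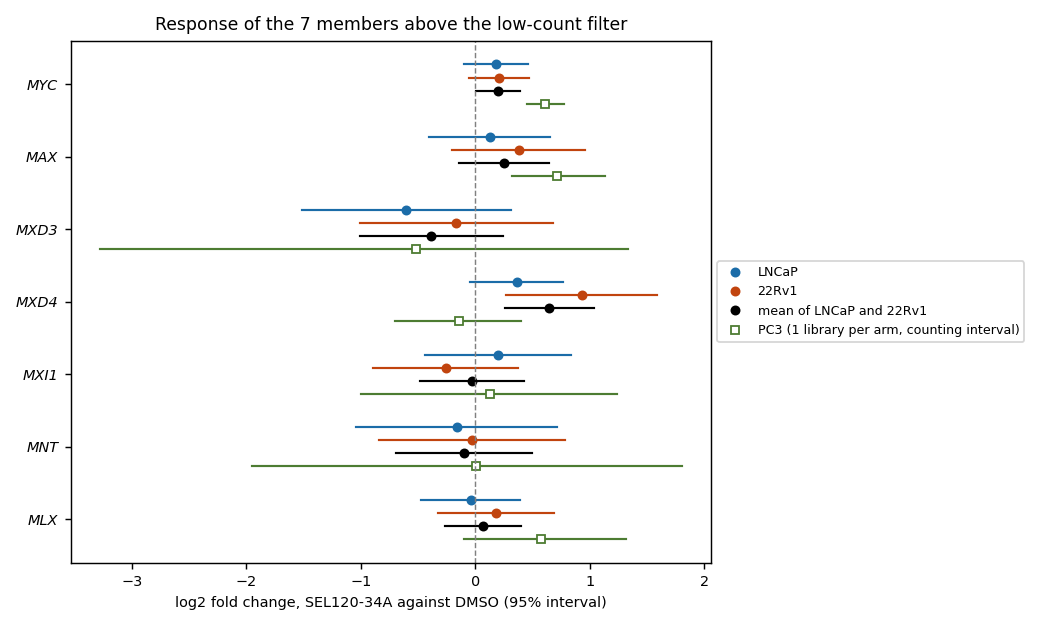
Log2 fold change of each tested network gene after SEL120-34A in LNCaP, in 22Rv1 and averaged over both (edgeR estimate with 95% interval), and the log2 ratio in PC3 (counting interval of 1 library per arm). Most intervals include 0, with MXD4 in 22Rv1 at 0.93 and MYC in PC3 at 0.61 among those that do not.

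MAX values in treated LNCaP were 70.2, 46.1 and 57.0 CPM against 62.0, 49.7 and 46.1 in controls, and they overlapped (0.13, SE 0.26, edgeR adjusted p = 0.897). In 22Rv1 they were 52.4, 38.6 and 59.9 against 51.0, 29.9 and 39.4 (0.38, SE 0.29, adjusted p = 0.520), again with overlap. MLX changed by -0.04 in LNCaP (adjusted p = 0.967) and by 0.18 in 22Rv1 (adjusted p = 0.764), with 89.4 to 133 and 57.0 to 98.7 CPM in the treated libraries.

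MXD3, a repressor expressed around S phase, had 22.5, 23.6 and 22.4 CPM in LNCaP controls and 11.7, 21.7 and 10.6 with SEL120-34A. The groups did not overlap, as for 10.7% of all tested genes in that direction, but the treated values rested on 3 to 8 counts and the change of -0.60 (SE 0.45, -1.52 to 0.32, edgeR adjusted p = 0.614) did not pass. In 22Rv1 the change was -0.17 (adjusted p = 0.881). For MNT it was -0.16 in LNCaP (adjusted p = 0.925) and -0.03 in 22Rv1 (adjusted p = 0.984).

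MXI1, another SIN3-recruiting repressor, changed by 0.20 in LNCaP (SE 0.32, edgeR adjusted p = 0.855). In 22Rv1 its treated levels were 77.2, 8.58 and 48.5 CPM against 58.9, 67.4 and 52.5 in controls. The low value came from 2 counts in replicate 2, the shallowest library. The change of -0.26 (adjusted p = 0.724) turned to 0.12 (adjusted p = 0.910) without that library.

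The 3 members under the filter were at or near the floor. MYCN, the paralog known from neuroblastoma and neuroendocrine prostate cancer, had 1 count in 1 of the 14 libraries, a 22Rv1 control. MYCL had 5, 2 and 9 counts in LNCaP controls and 1 in each treated LNCaP library, and 3, 0 and 4 against 2, 0 and 2 in 22Rv1. With the filter removed, the edgeR p for MYCL in LNCaP was 0.0529 (adjusted p = 0.772). MXD1 had 1 count in each LNCaP control and 1, 2 and 4 in the treated libraries, at or near the floor of 3 counts. In 22Rv1 it had 4, 5 and 1 against 3, 2 and 1, and in PC3 5 and 6.

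In PC3, MYC and MAX were both higher in the treated library than in its control. With 1 library per arm these are ratios between libraries, with no replicate check and no test. MYC went from 708 to 1084 CPM (1000 to 1173), a log2 ratio of 0.61 with a counting interval of 0.45 to 0.78. MAX went from 112 (91.5 to 136) to 186 CPM (152 to 225), a ratio of 0.72 (0.32 to 1.13). MXD4 had 87.1 and 78.9 CPM, a ratio of -0.14 (-0.70 to 0.40). MLX had a ratio of 0.58 (-0.10 to 1.31), MXI1 of 0.12 and MNT of 0.01, the last from 8 and 5 counts. No member with at least 10 counts in sum reached a ratio of 1 in either direction. MYCL had 2 and 0 counts and MYCN none, and no ratio is read for them. For comparison, 2.6% of the 10415 genes with at least 10 counts in sum lay above 1 and 4.3% below -1, with a median of 0.0015. The share of genes above the ratios of MYC and MAX was not counted.

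Known targets of MYC were followed next, in lists written with earlier results of these data known. Counts in these and the later lists are therefore a description beside the share of all tested genes, not an independent test. That share depends on how well genes are counted. In the average, 151 of all 7086 tested genes were called lower and 275 higher. With at least 10 counts in every library, 190 of 2870 were lower and 228 higher. The 6 induced genes named below all have such counts. Of 30 genes that MYC is known to induce, 27 were tested. EIF4A1 and IMPDH2 were not, because they had 0 counts in every library, and the cause of this was not tested. Averaged over LNCaP and 22Rv1, 6 of the 27 fell and 0 rose (lower calls were 2.13% of all tested genes). The 6 were NCL (nucleolin, fell by 0.51), HSPD1 (the mitochondrial chaperonin, fell by 0.52), ODC1 (the first enzyme of polyamine synthesis, fell by 0.45), LDHA (lactate dehydrogenase, fell by 0.39), FBL (the nucleolar methyltransferase fibrillarin, fell by 0.36) and PTMA (prothymosin alpha, fell by 0.32). Their edgeR adjusted p-values lay between 0.00433 for NCL and 0.0290 for FBL. In PC3, with 1 library per arm, their log2 ratios did not show this fall. The ratio was 0.32 for FBL (counting interval 0.03 to 0.61), 0.13 for LDHA and 0.11 for PTMA. It was 0.07 for ODC1, 0.0031 for HSPD1 and -0.06 for NCL. The median of the 27 was -0.20, against 0.00 for all tested genes. The count fell to 4 without replicate 3 of the LNCaP controls or replicate 1 of treated LNCaP, was 2 with limma-trend and 9 with library totals, and 0 of these genes rose in any of the 21 alternatives.

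ODC1, which MYC is known to activate through E-boxes, had between 666 and 877 CPM in LNCaP controls and between 491 and 674 in treated libraries. In 22Rv1 it had between 693 and 922 without and between 412 and 707 with SEL120-34A. The arms overlapped slightly in both lines. Within single lines, lower calls were 0.776% of all tested genes in LNCaP and 1.55% in 22Rv1. Of the induced genes, LDHA (fell by 0.62, edgeR adjusted p = 0.00246) and PTMA (fell by 0.48, adjusted p = 0.0273) passed in LNCaP, and NCL (fell by 0.54, adjusted p = 0.0472) and HSPD1 (fell by 0.58, adjusted p = 0.0479) in 22Rv1. In LNCaP the count was 1 without replicate 2 or 3 of the controls or replicate 1 or 2 of the treated libraries, 6 without replicate 3 of the treated libraries and 0 with limma-trend. In 22Rv1 it was 0 without replicate 3 of the controls, without replicate 2 of the treated libraries, with the DESeq2 Wald test or with limma-trend, and 1 without replicate 1 of either 22Rv1 arm or replicate 2 of the LNCaP controls. For the difference in effect between the lines 0 of the 27 were called, where 0.734% of all tested genes were. LDHA, at -0.62 in LNCaP and -0.16 in 22Rv1, had a difference of -0.47 (-0.84 to -0.09, edgeR adjusted p = 0.322). Of the 30 listed induced genes, tested or not, 27 had a promoter window. The E-box stood in 12 of these (44.4%), against 8.77% of all genes with a window. Among them were ODC1, LDHA, HSPD1 and FBL, but not NCL or PTMA. The others, APEX1, CDK4, EIF4E, SRM, RCC1, PPAT, NME1 and HSPE1, were not called in the average. HSPD1 and HSPE1 share 1 site, counted for both. Because the list was one of known MYC targets, its share of E-boxes is a description and not a test.

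Of 12 genes that MYC is known to repress, 9 were tested, and averaged over the lines 4 rose and 0 fell (higher calls were 3.88% of all tested genes). Of the other 5, 3 had negative estimates. FTH1, the ferritin heavy chain, rose by 0.75 (SE 0.10, edgeR adjusted p = 1.34e-06) and kept its call in all 21 alternatives. Its levels were 958 to 1079 CPM in LNCaP controls and 1499 to 1758 in treated LNCaP, and 420 to 475 and 650 to 1047 in 22Rv1, without overlap in either line. Of 7086 tested genes, 621 in LNCaP and 882 in 22Rv1 were higher without overlap. GADD45A, a stress-induced growth arrest gene, rose by 1.42 (SE 0.24, adjusted p = 8.45e-05). CDKN1A, the cyclin-dependent kinase inhibitor p21, rose by 0.77 (adjusted p = 0.0119), and CEBPA, a differentiation factor, by 0.88 (adjusted p = 0.0340), the latter called in 9 of 20 alternatives.

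All 4 passed in LNCaP alone, where higher calls were 1.99% of all tested genes. In 22Rv1, FTH1 (0.84) and GADD45A (1.45) passed, where higher calls were 4.15%. The averaged count was 2 without replicate 3 of treated 22Rv1 and 3 or 4 without any other single library. Within LNCaP it was 2 without replicate 3 of the controls or replicate 2 of the treated libraries and 0 with limma-trend, and within 22Rv1 it was 1 without replicate 3 of the controls or replicate 1 or 2 of the treated libraries. These genes also answer to p53 and other regulators, and the part of MYC in their change was not tested. In PC3, with 1 library per arm, FTH1 had 1798 CPM in the control and 1652 in the treated library. CDKN1A had 21.8 and 36.8 CPM, from 20 and 21 counts (log2 ratio 0.69, counting interval -0.20 to 1.72). GADD45A had 43.5 and 70.1, from 40 counts in each (0.66, 0.02 to 1.36). CEBPA had 16.3 and 22.8, from 15 and 13 counts (0.42, -0.71 to 1.65).

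**Figure D4:**
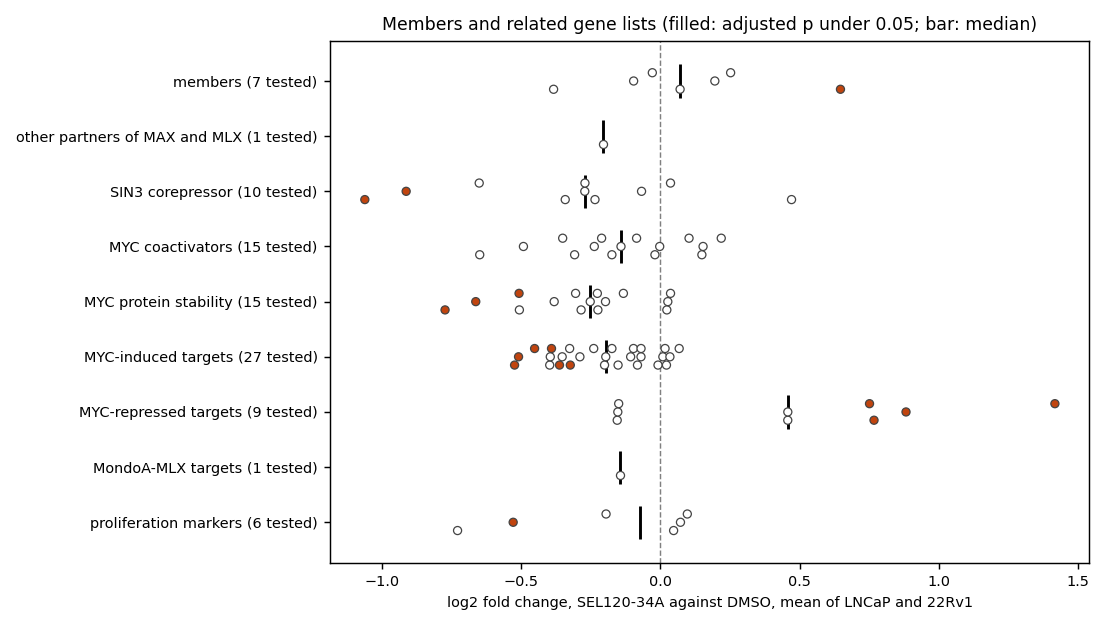
Log2 fold changes after SEL120-34A, averaged over LNCaP and 22Rv1, for the tested genes of each list around the network; each point is a gene, filled where its adjusted p was under 0.05, and lines mark list medians. The MYC-induced genes have a median of -0.20 with 6 calls, all lower, and the MYC-repressed genes a median of 0.46 with 4 calls, all higher.

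For the corepressor that MXD proteins recruit, 10 of 10 listed SIN3 complex genes were tested. Averaged over the lines, 2 fell, the scaffold SIN3A (by 1.06, edgeR adjusted p = 0.0331) and the subunit SUDS3 (by 0.91, adjusted p = 0.0298), with a list median of -0.27. Lower calls were 2.13% of all tested genes. Neither fall was firm. Treated libraries held 1 to 7 counts of SIN3A in LNCaP and 1 to 9 in 22Rv1. For SUDS3 treated LNCaP held 1 to 6 counts, so these values reach the floor of 3 counts. SIN3A kept its call in 10 of 19 alternatives and SUDS3 in 12 of 20, and no SIN3 gene passed without replicate 3 of the LNCaP controls or without replicate 2 of treated 22Rv1. Only 1 passed without replicate 2 of either line's controls or without any 1 treated LNCaP library. In 22Rv1, 1 gene rose and 1 fell, where higher calls were 4.15% and lower calls 1.55% of all tested genes. The subunit SAP30 rose by 1.22 (SE 0.23, edgeR adjusted p = 5.55e-04), with 45.2 to 65.5 CPM in controls and 129 to 135 in treated libraries, and SUDS3 fell by 0.75 (adjusted p = 0.0446), a call kept in 13 of 21 alternatives and lost without replicate 2 or 3 of the controls or replicate 1 or 2 of the treated libraries. In LNCaP 0 of the 10 passed.

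Among 15 tested coactivators of MYC, of 16 listed, 0 passed in the average and in 22Rv1. In LNCaP WDR5, which tethers MYC to chromatin, fell by 0.86 (edgeR adjusted p = 0.0436), a call kept in 9 of 22 alternatives. Lower calls in LNCaP were 0.776% of all tested genes. Of 18 genes for proteins that set the stability of MYC protein, 15 were tested, and 3 fell in the average, where 2.13% of all tested genes did. These were SET, an inhibitor of the phosphatase PP2A (by 0.51, adjusted p = 8.03e-04), and the mitotic kinases PLK1 (by 0.77, adjusted p = 0.00263) and AURKA (by 0.66, adjusted p = 0.0169). SET kept its call in all 21 alternatives. UBE2C fell in LNCaP (by 0.52, adjusted p = 0.0325), and SET and PLK1 fell in 22Rv1 (by 0.54 and 0.73, adjusted p = 0.0180 and 0.0420). Lower calls in 22Rv1 were 1.55% of all tested genes. UBE2C kept its call in 16 of 22 alternatives and PLK1 in 22Rv1 in 12 of 21. No gene of the list passed in LNCaP without replicate 2 or 3 of its controls or replicate 1 or 2 of its treated libraries, and none in 22Rv1 without replicate 1 or 2 of its treated libraries.

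PLK1, AURKA and UBE2C are also genes of mitotic cells. Beside them, of 6 proliferation markers CCNB1 fell in the average (by 0.53, edgeR adjusted p = 0.00619) and MKI67 fell in 22Rv1 (by 1.39, adjusted p = 0.0464, called in 8 of 20 alternatives). Lower calls were 2.13% of all tested genes in the average and 1.55% in 22Rv1. Of the 6 estimates, 3 were positive and 3 negative both in the average (median -0.07) and in 22Rv1 (median 0.05). In LNCaP 1 was positive and 5 negative, with 0 called. The part of a changed share of dividing cells in these values was not tested. Of 3 targets of MondoA and MLX, TXNIP alone was tested, and it changed by 0.21 in LNCaP and -0.50 in 22Rv1, neither called. Of 3 other partners of MAX and MLX, the 1 tested did not pass.

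The genes whose pattern over the 6 groups of line and treatment was most like that of MYC were chosen among 4275 genes with a mean of at least 20 counts. The measure was the root mean square difference of log2 CPM group means after centring each gene. The closest were CCDC124 (0.0981), DNAJC2 (0.109), NT5C (0.117), SBDSP1 (0.138) and TADA3 (0.138), and SBDSP1 is a pseudogene whose reads may be shared with its parent gene. With 6 groups, of which 2 hold 1 library each, this is a description of levels.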

How the data were processed

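RNA 3′ ends were sequenced by BRB-seq, which barcodes each sample during reverse transcription so that samples can be pooled. The authors deposited raw counts per gene, made with STARsolo (GRCh38, GENCODE release 43) per the submitters' processing notes and methods. Whether molecular identifiers were collapsed was not given in the sources used here. The authors also deposited log2 CPM values, used in 1 alternative. Replicates were taken from the labels, which do not say that they were separate cultures. The study's methods describe its experiments in general as biologically replicated, without naming these libraries, so p-values measure the spread between them, which may be technical. No pair of replicates was alike enough to be counted as 1.

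The test was that of edgeR 4.0.16 under R 4.3.3 (quasi-likelihood F-test, TMM, low-count filter, 7086 genes), with 1 model of the 12 LNCaP and 22Rv1 libraries and a mean for each of 4 groups. Contrasts were treatment in each line, its average, its difference between the lines, and the untreated lines. P-values were adjusted by Benjamini-Hochberg over every gene of the model, and 0.05 was the threshold. PC3 log2 ratios used a prior count of 2 and 95% exact counting intervals. On simulated counts of 6730 genes, edgeR recovered 77.1% of genes changed by 1.5 on the log2 scale in LNCaP and 84.4% in 22Rv1. Of its calls, 5.73% and 4.71% were genes left unchanged. The members changed by at most 0.93 under treatment, so these rates do not show how often changes of their size are found. The 22 alternatives covered normalization, filter, samples, depth and test (DESeq2 1.42.0, limma 3.58.1).

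Members and lists were chosen with earlier results of these data known. All members were named, with every list gene past the threshold in LNCaP, 22Rv1 or their average, up to 6 per list and comparison, and the 5 genes most like MYC. Figures were drawn with matplotlib 3.10.9. Some marker genes that were tabulated are not reported here.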

Additional observations from a re-analysis of the deposited data

How the results depend on the processing

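MYC and MXD4 kept their calls between the untreated lines under every alternative that tested them, and MLX kept its call in 20 of 21. No alternative called a member within LNCaP, within 22Rv1 or for the difference between the lines. The average over both lines called 1 member as reported and 0 with library totals, with no filter, with a minimum of 10 counts in every library (where MXD4 was not tested) and with limma-trend, and between 0 and 1 when 1 library was left out. The values that changed direction belonged to changes that were not called, and the cause was not tested. For library totals these were the difference of MYC (0.038) and the average of MLX (-0.047), and for the minimum of 10 counts the difference of MYC (0.078). For thinned libraries they were the differences of MYC (0.14), MAX (0.078) and MLX (0.055), MLX in 22Rv1 (-0.12) and the average of MLX (-0.088). With 1 library left out, values on both sides of 0 were found for the difference of MYC (-0.11 to 0.13), MAX in LNCaP (-0.0082 to 0.28), MXD3 in 22Rv1 (-0.45 to 0.20) and between untreated lines (-0.42 to 0.034), MXI1 in 22Rv1 (-0.85 to 0.12) and in the average (-0.33 to 0.16), MNT in LNCaP (-0.30 to 0.032), in 22Rv1 (-0.24 to 0.14) and in the difference (-0.31 to 0.077), and MLX in LNCaP (-0.20 to 0.12), in 22Rv1 (-0.022 to 0.35) and in the average (-0.035 to 0.16).

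Over all tested genes, edgeR called 196 in LNCaP, 404 in 22Rv1, 426 in the average and 52 in the difference. DESeq2 called 101, 255, 313 and 37, limma-trend 41, 201, 232 and 5, thinned libraries 96, 274, 312 and 29, and at least 10 counts 122, 323, 418 and 29. No filter called 260 in 22Rv1, and thinned libraries and at least 10 counts called 2048 and 1503 between the untreated lines, against 3473. Leaving out 1 library gave 87 to 239, 158 to 446, 276 to 456 and 24 to 57. Library totals moved the median of all genes to -0.08 in LNCaP, -0.14 in 22Rv1, -0.12 in the average and -0.24 between untreated lines, with 148 higher and 359 lower calls in the average, against 275 and 151.

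Libraries with the same number correlated at 0.24, 0.01 and 0.33 in LNCaP and at 0.01, -0.02 and 0.10 in 22Rv1, and not every library correlated best with its own number, so the numbers were not taken as pairs. With the replicate number as a block, 275, 479, 526 and 77 genes were called, members called stayed at 0, 0, 1 and 0 and at 3 between the untreated lines, and the average of MXD4 was 0.63 (adjusted p = 0.0343). In the lists, the block raised the genes called lower in LNCaP from 2 to 6 of the MYC-induced genes (6 also with no filter) and from 1 to 3 of those for MYC protein stability.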
